A study of Mus musculus with 12 samples.

Results

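The genes described here are 44 lysosomal genes, chosen by name from the 54532 genes of the count table, as a list of cathepsins, other lysosomal hydrolases, lysosomal membrane proteins, subunits of the vacuolar proton pump and the transcription factors TFEB and TFE3. By role they comprised 10 proteases, 10 glycosidases, 4 sulfatases, 7 lipid enzymes and lipid transfer proteins, 4 membrane proteins, 6 proton pump genes, 2 transcription factors and progranulin. Each symbol matched 1 row of the table, and all 44 genes passed the filter on low counts in every comparison. The lowest count of any of them in any library was 361, for Tfeb. Coordinates are those of the deposited table (mm10, GRCm38.p6).

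RNA-seq was performed in bone marrow macrophages (BMMs) grown from tibial marrow (per the labels, while the study's methods name femoral and tibial marrow) of wild-type C57BL/6J mice aged 2 to 3 months. Marrow cells were kept in CSF-1, the growth factor that drives macrophage differentiation, first at 12 ng/ml for 24 h and then at 120 ng/ml for 48 h, and were moved to plates coated with fibronectin, a matrix protein bound by α5β1 integrin, or to uncoated plates. They then received IgG or a neutralizing antibody to ITGA5, the α5 integrin chain, each at 10 µg/ml for 24 h. Crossing antibody and coating gave 4 groups of 3 libraries each, named here by the antibody and by whether fibronectin was present. All groups shared genotype, CSF-1 and serum, and no group was left without antibody. The study describes the replicates of its macrophage experiments as biologically independent, and the labels do not say whether the 3 libraries of a group came from separate animals.

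Lysosomes are acidic compartments in which enzymes digest proteins, glycans, lipids and nucleic acids taken up by the cell or delivered by autophagy, and macrophages, as professional phagocytes, hold many of them. The vacuolar ATPase (V-ATPase), a rotary pump with a cytosolic V1 sector and a membrane V0 sector, acidifies the lumen, and a coat of glycosylated membrane proteins lines it. Many lysosomal genes carry an E-box in their promoters that is bound by the related factors TFEB and TFE3, a set known as the coordinated lysosomal expression and regulation (CLEAR) network.

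Counts on genes per library ran from 12954342 to 22075432. The 3 libraries of anti-ITGA5 without fibronectin stood apart from the rest, with a chi-square of 10.4 to 23.0 per gene between replicates against 2.65 to 7.45 in the other groups. For the 44 genes, the median SD of FPKM (fragments scaled to gene length and library size) was 5.5% of the mean in that group, against 2.49% in IgG without fibronectin, 3.13% in IgG with fibronectin and 3.32% in anti-ITGA5 with fibronectin. Its replicate 2, which had the lowest total count of all libraries, held the lowest FPKM of its group for 41 of the 44 genes. FPKM summed over all genes was also lowest in that library, at 273250, against 303034 in replicate 1 and 352400 in replicate 3. The share of all genes with their lowest FPKM in it was not computed, so the count is not shown to be particular to the list. Macrophage markers were present in every library, with Csf1r, the CSF-1 receptor, Adgre1 and Cd68 all detected. Of the 7 neutrophil markers Ly6g was at 0 throughout, while S100a8 had 17 to 44 reads per library and Mpo 3 to 21. Of the 7 osteoclast markers Calcr was at 0 throughout, while Atp6v0d2 had 231 to 407 reads, Ctsk 36 to 118 and Acp5 31 to 114.

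In these cells some of the lysosomal genes ranked among the most abundant transcripts, and levels differed widely across the list. On the FPKM scale, which is per length and allows genes to be set side by side, the median over the 44 genes of the mean over 12 libraries was 55.2, against 5.31 over all 13455 genes tested across the 12 libraries. Psap, the precursor of the saposins that help enzymes reach sphingolipids, was the highest at 2780 FPKM (rank 7 of all genes by mean FPKM). It was followed by the aspartic protease gene Ctsd at 2456 (rank 8) and the cysteine protease genes Ctsb at 2295 (rank 9) and Ctss at 855 (rank 24). These 4 genes held 62.1% of the summed FPKM of the list. At the other end stood Tfeb at 4.57 (rank 7195), Arsb, a sulfatase of dermatan sulfate breakdown, at 6.01 and Mcoln1, a calcium channel of the lysosomal membrane, at 7.92.

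**Figure D1:**
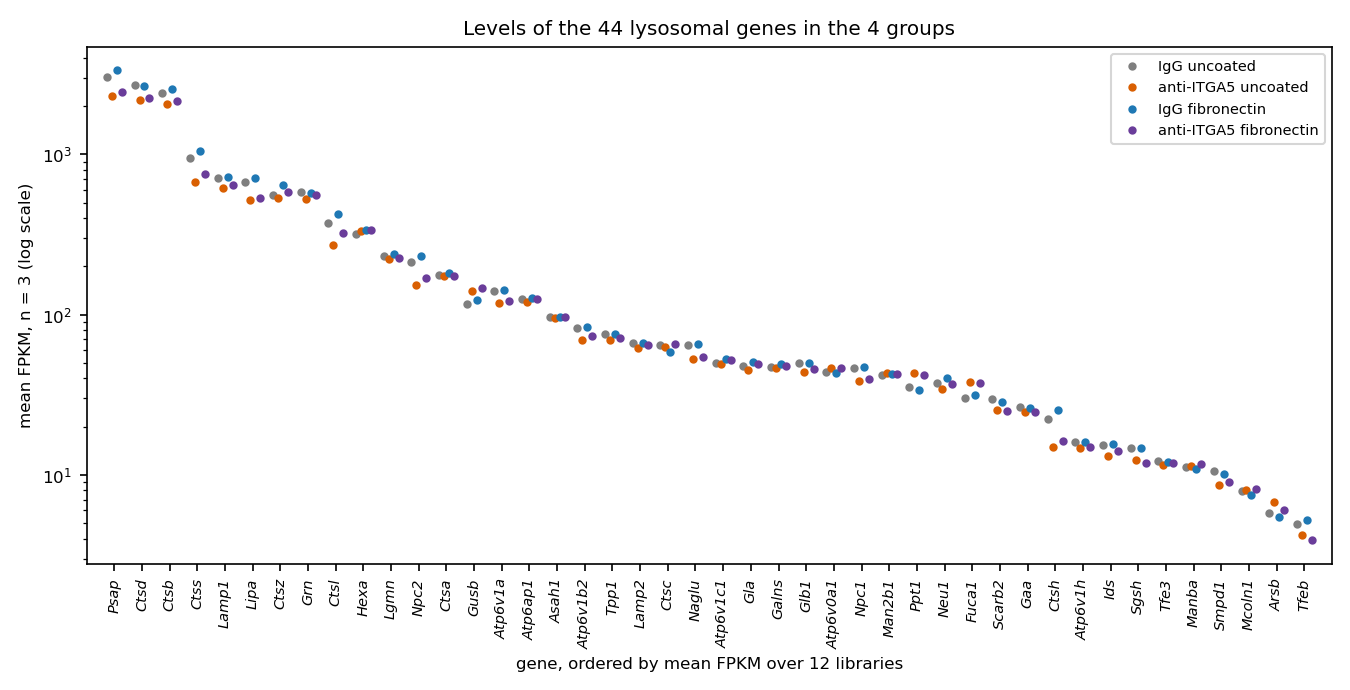
Group means of FPKM (n = 3 libraries per group, logarithmic axis) for the 44 lysosomal genes, ordered by the mean over all 12 libraries. Levels run from 4.57 for Tfeb to 2780 for Psap, and differences between groups are small beside differences between genes.

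The promoters of 36 of the 44 genes were matched by symbol in RefSeq tables of the build GRCm38.p6. Windows of 300 bases, from 250 before to 50 after each gene start, were searched for the E-box CACGTG, which reads the same on both strands, and for the longer palindrome TCACGTGA, which contains it. The E-box was present in 12 of the 36 genes (33.3%), against 8.09% of 27025 genes with a promoter. The palindrome was present in 5 (13.9%), against 1.12% of those genes. The 27025 genes were not restricted to genes tested in these cells, and the shares among the latter were not computed. A match describes the letters of the window and does not show that a factor binds there. The 250 bases before the gene start that RefSeq gives are printed, 5′ to 3′ on the strand of the gene, for Lamp1 (chr8:13158911-13159160, plus strand), the gene with the most E-boxes, and for Gusb (chr5:130003050-130003299, minus strand), a gene without a match. Each E-box is in capitals.
Lamp1: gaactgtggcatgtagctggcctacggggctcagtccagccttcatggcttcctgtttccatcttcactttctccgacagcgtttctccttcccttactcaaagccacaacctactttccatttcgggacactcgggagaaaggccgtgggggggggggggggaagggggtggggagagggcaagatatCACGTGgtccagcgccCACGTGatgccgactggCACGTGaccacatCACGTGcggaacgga
Gusb: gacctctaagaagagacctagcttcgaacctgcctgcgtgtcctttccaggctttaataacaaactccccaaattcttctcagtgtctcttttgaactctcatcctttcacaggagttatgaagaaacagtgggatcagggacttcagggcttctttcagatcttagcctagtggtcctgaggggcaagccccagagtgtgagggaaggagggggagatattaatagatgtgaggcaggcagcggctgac
Counted from the gene start, the 4 E-boxes of Lamp1 begin at -61, -45, -28 and -15. For 7 further genes each E-box is shown with up to 10 bases on either side, to compare the bases that flank it. Ctsd, Ctsl, Naglu, Sgsh and Atp6v1a were lower in both antibody comparisons described next, and Gla and Gaa were called in neither. The E-boxes of Ctsa, Lgmn and Mcoln1, also called in neither, and of Glb1, called in a single comparison, are not printed. The genes shown are thus weighted to those that fell.
Ctsd, E-box at -245, chr7:142388057-142388077, minus strand: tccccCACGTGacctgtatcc
Ctsd, E-box at -98, chr7:142387910-142387935, minus strand: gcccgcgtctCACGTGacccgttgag
Ctsl, E-box at -236, chr13:64370741-64370766, minus strand: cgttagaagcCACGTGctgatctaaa
Naglu, E-box at -73, chr11:101070011-101070036, plus strand: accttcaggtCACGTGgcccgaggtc
Sgsh, E-box at -29, chr11:119355524-119355549, minus strand: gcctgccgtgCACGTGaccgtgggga
Atp6v1a, E-box at -131, chr16:44139375-44139400, minus strand: ttttttaaatCACGTGataggcttaa
Gla, E-box at -227, chrX:134601217-134601242, minus strand: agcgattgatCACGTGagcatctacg
Gla, E-box at -194, chrX:134601184-134601209, minus strand: agatctcggtCACGTGagcaactctc
Gaa, E-box at -140, chr11:119267813-119267838, plus strand: tctgtgcgatCACGTGtttgactctg
Among the E-boxes printed, the palindrome was present at that of Atp6v1a, at both of Gla and at the nearer one of Ctsd. Ctsa and Mcoln1, not printed, hold it too.

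The first question was whether ITGA5 neutralization changed these genes in BMMs, and it was asked separately without and with fibronectin. On either surface, more of the lysosomal genes fell than rose upon ITGA5 neutralization. Several cathepsins, the lipid genes Psap, Npc2 and Lipa, the membrane gene Lamp1 and the V1 subunit genes Atp6v1a and Atp6v1b2 fell on either surface, by 11.8% to 36.0%. The glycosidases Gusb and Fuca1 and the thioesterase Ppt1 rose in both comparisons by 18.3% to 25.5%. The remaining genes included 19 that were called in neither comparison.

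Without fibronectin, 18 of the 44 genes fell and 3 rose at an adjusted p of 0.05 or less (edgeR quasi-likelihood test, Benjamini-Hochberg adjustment over all genes tested), which is 47.7% of the list against 20.8% of all 12924 genes tested. By direction, 40.9% of the list fell, against 9.79% of all genes, and 6.82% rose, against 11% of all genes. The median log2 fold change was -0.11 over the list and 0.0090 over all genes, and 35 of the 44 values were negative. The FPKM of the groups did not overlap for 24 genes that were lower and 5 that were higher, against 19.4% and 18.7% of all genes. With fibronectin, 18 fell and 4 rose, which is 50% of the list against 27.6% of all 12916 genes tested, with 40.9% of the list lower against 13.2% of all genes and 9.09% higher against 14.4%. The median was -0.10 over the list and -0.0038 over all genes, and 34 values were negative. Here 23 genes were lower and 6 higher without overlap, against 20.6% and 21.7% of all genes. The changes were modest in size. Among called genes the median size on the log2 scale was 0.28 without and 0.26 with fibronectin in the list, and 0.36 and 0.33 over all genes. In bulk RNA, fewer cells that express a gene and less of its RNA per cell cannot be told apart. Without replicate 2 of anti-ITGA5 without fibronectin, the library with the lowest levels, 19 genes fell and 4 rose, against 14% and 15.1% of all genes in that fit, and all 21 genes called with it were still called. Without replicate 1 of IgG without fibronectin, 11 fell (25% of the list, against 4.7% of all genes in that fit) and 2 rose (4.55%, against 6.34%), the calls of Glb1, Sgsh, Ids, Smpd1, Scarb2, Atp6v1a, Atp6v1b2 and Fuca1 being lost. By limma on log2(FPKM + 1) with no filter, 6 of the 18 falls were still called without and 9 with fibronectin, where that fit called 2.08% and 3.34% of all genes lower, and Ctsb, Ctsd, Psap, Lamp1 and Scarb2 were among those lost on either surface.

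The 2 antibody comparisons share no library. Of the 18 genes lower without fibronectin, 15 (83.3%) were also lower with it, and the same 15 made up 83.3% of the genes lower with fibronectin. Over all genes, 917 were lower in both, which is 72.5% of those lower without and 54% of those lower with fibronectin. The 15 were Ctsb, Ctsd, Ctsh, Ctsl, Ctss, Naglu, Sgsh, Lipa, Psap, Npc1, Npc2, Lamp1, Scarb2, Atp6v1a and Atp6v1b2. Glb1, Ids and Smpd1 were called lower only without fibronectin, and Ctsz, Neu1 and Tfeb only with it. All 3 genes higher without fibronectin (Fuca1, Gusb and Ppt1) were among the 4 higher with it, the other being Ctsc, and over all genes 81.7% of those higher without fibronectin were also higher with it. The genes lower in both had a median level of 191.7 FPKM and those called in neither of 48.2 FPKM. Count tests reach smaller differences in genes with more reads, and the part of level in these calls was not tested.

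**Figure D2:**
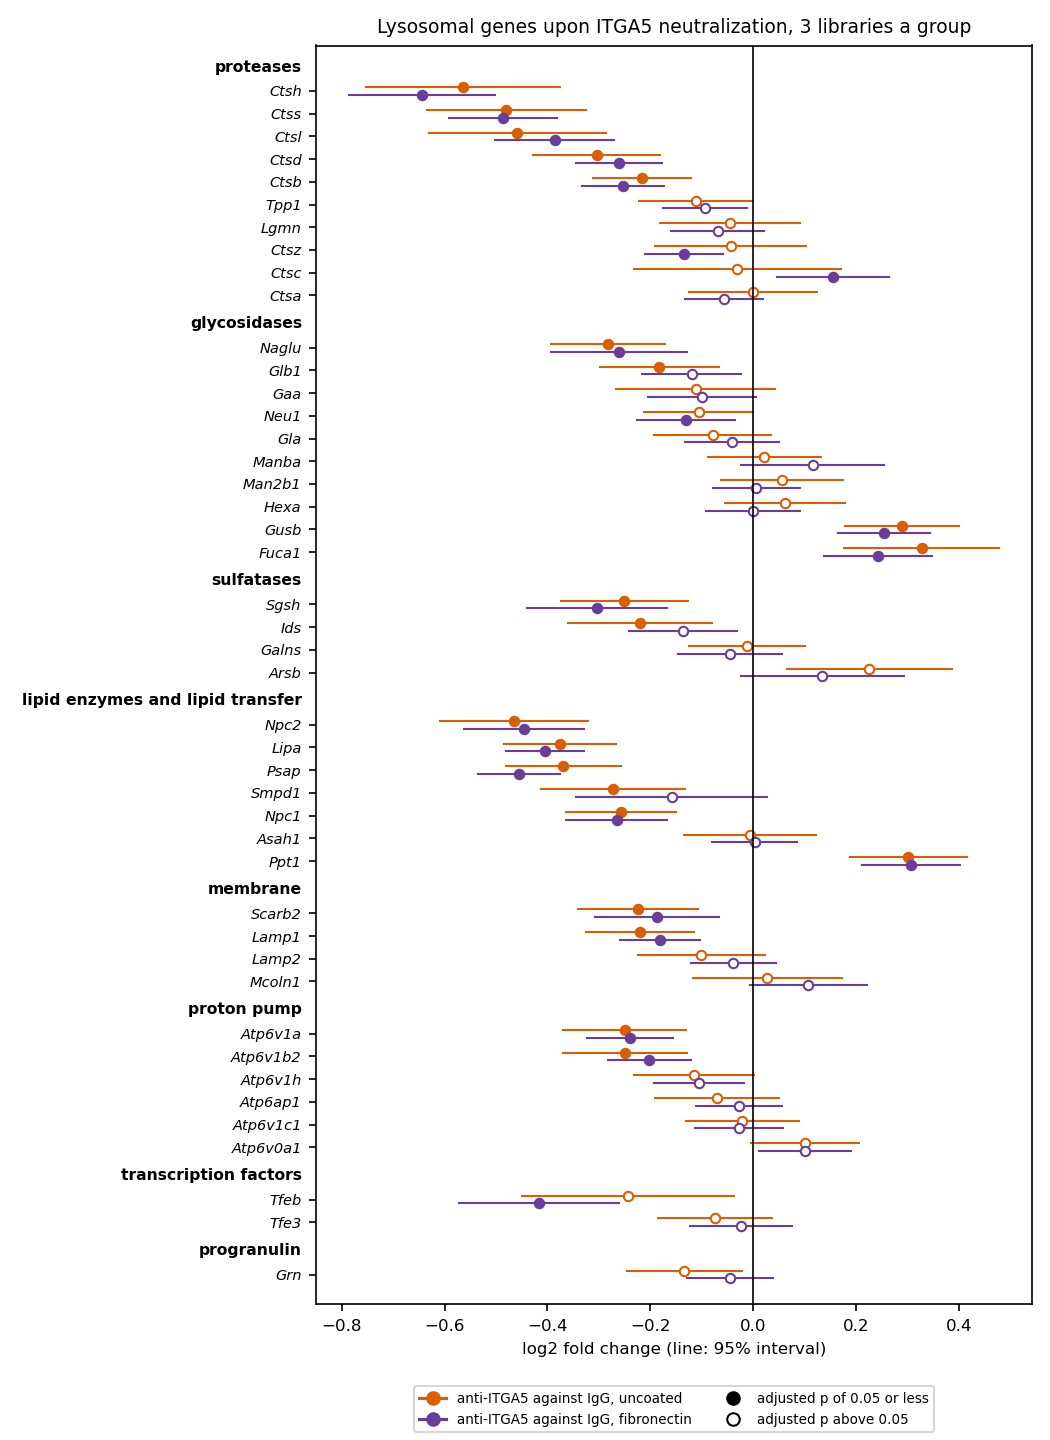
Log2 fold change of anti-ITGA5 against IgG for each of the 44 genes, grouped by role, without fibronectin (orange) and with fibronectin (purple), with 95% intervals from edgeR (3 libraries per group). Filled points mark an adjusted p of 0.05 or less; 18 filled points lie below 0 for each surface, and 3 without and 4 with fibronectin lie above it.

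Among the 10 proteases, 5 fell and none rose without fibronectin, and 6 fell and 1 rose with it. The largest fall in either comparison was that of Ctsh (ENSMUSG00000032359, chr9:90054152-90076089, plus strand), which encodes cathepsin H, a cysteine protease that trims peptides from their amino end. The IgG libraries had 22.3, 19.5 and 24.8 FPKM without fibronectin and 25.6, 23.8 and 26.8 FPKM with it, and the anti-ITGA5 libraries had 15.2, 13.8 and 15.9 FPKM without and 15.8, 15.2 and 17.9 FPKM with it. On each surface the anti-ITGA5 libraries all lay below the IgG libraries, with no overlap. The fall was 32.3% without fibronectin (log2 -0.56, SE 0.0852, adjusted p = 0.0011) and 36.0% with it (log2 -0.64, SE 0.0654, adjusted p = 2.01e-05). Ctss (ENSMUSG00000038642, chr3:95526786-95556403, plus strand) encodes cathepsin S, which cleaves the invariant chain during antigen presentation. Replicates 1 to 3 of Ctss measured 948, 927 and 959 FPKM with IgG and 696, 593 and 736 FPKM with anti-ITGA5 on uncoated plates, and 1076, 1013 and 1059 FPKM with IgG and 743, 705 and 802 FPKM with anti-ITGA5 on fibronectin. Again the groups did not overlap on either surface, and the decrease was 28.3% without (log2 -0.48, SE 0.0698, adjusted p = 0.000855) and 28.6% with fibronectin (log2 -0.49, SE 0.0481, adjusted p = 1.71e-05).

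Ctsl (ENSMUSG00000021477, chr13:64359337-64370890, minus strand) encodes cathepsin L, another endopeptidase of the cysteine class. On uncoated plates the level of Ctsl was 383, 347 and 391 FPKM with IgG and 285, 234 and 294 FPKM with anti-ITGA5, whereas on fibronectin it was 434, 389 and 445 FPKM with IgG and 318, 312 and 341 FPKM with anti-ITGA5. The anti-ITGA5 values were the lower ones throughout. Ctsl fell by 0.46 on the log2 scale without fibronectin (SE 0.078, adjusted p = 0.00227) and by 0.39 with it (SE 0.0532, adjusted p = 0.000199). The more abundant Ctsd (ENSMUSG00000007891, chr7:142375911-142388038, minus strand), the gene of cathepsin D, carries a palindrome in its promoter. Without fibronectin, its FPKM in the 3 libraries were 2677, 2636 and 2808 with IgG and 2263, 1974 and 2317 with anti-ITGA5, and on fibronectin 2736, 2630.3 and 2698 with IgG and 2169, 2249.7 and 2319 with anti-ITGA5. Every anti-ITGA5 library was below every IgG library on its surface. The fall on the log2 scale was smaller than that of Ctsh in the same comparisons, at -0.30 without fibronectin (SE 0.0559, adjusted p = 0.00351) and -0.26 with it (SE 0.0385, adjusted p = 0.000334).

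Ctsb (ENSMUSG00000021939, chr14:63122462-63145923, plus strand) encodes cathepsin B, one of the main cysteine proteases of macrophage lysosomes. The IgG libraries had 2429, 2429 and 2400.4 FPKM without fibronectin and 2613, 2569.8 and 2458 FPKM with it, and the anti-ITGA5 libraries had 2154, 1917 and 2154 FPKM without and 2149, 2165 and 2102 FPKM with it. The groups were separate on each surface, with log2 fold changes of -0.22 (SE 0.0429, adjusted p = 0.00528) and -0.25 (SE 0.0369, adjusted p = 0.0003). Ctsc (ENSMUSG00000030560, chr7:88278085-88310888, plus strand), the gene of dipeptidyl peptidase I, which activates the serine proteases of immune cell granules, was the 1 protease gene called higher, in the comparison with fibronectin. Replicates 1 to 3 of Ctsc measured 63.6, 65.2 and 63.8 FPKM with IgG and 69.6, 51.3 and 67.1 FPKM with anti-ITGA5 on uncoated plates, and 60.5, 56.3 and 58.6 FPKM with IgG and 70.0, 61.1 and 64.4 FPKM with anti-ITGA5 on fibronectin. Without fibronectin the anti-ITGA5 values lay on either side of the IgG values (log2 -0.03, adjusted p = 0.852), and with fibronectin they lay above them (log2 0.16, SE 0.0505, adjusted p = 0.0375). The second call was kept in 8 of 17 alternative fits. Ctsz, the gene of the carboxypeptidase cathepsin Z, was called lower with fibronectin (log2 -0.13, adjusted p = 0.0129) but not without it (log2 -0.04, adjusted p = 0.692). Ctsa, the gene of the protective protein of β-galactosidase and sialidase, Lgmn, that of the asparaginyl endopeptidase legumain, and Tpp1, that of tripeptidyl peptidase 1, were called in neither comparison, and the lowest of their log2 fold changes were those of Tpp1, at -0.11 without and -0.09 with fibronectin.

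**Figure D3:**
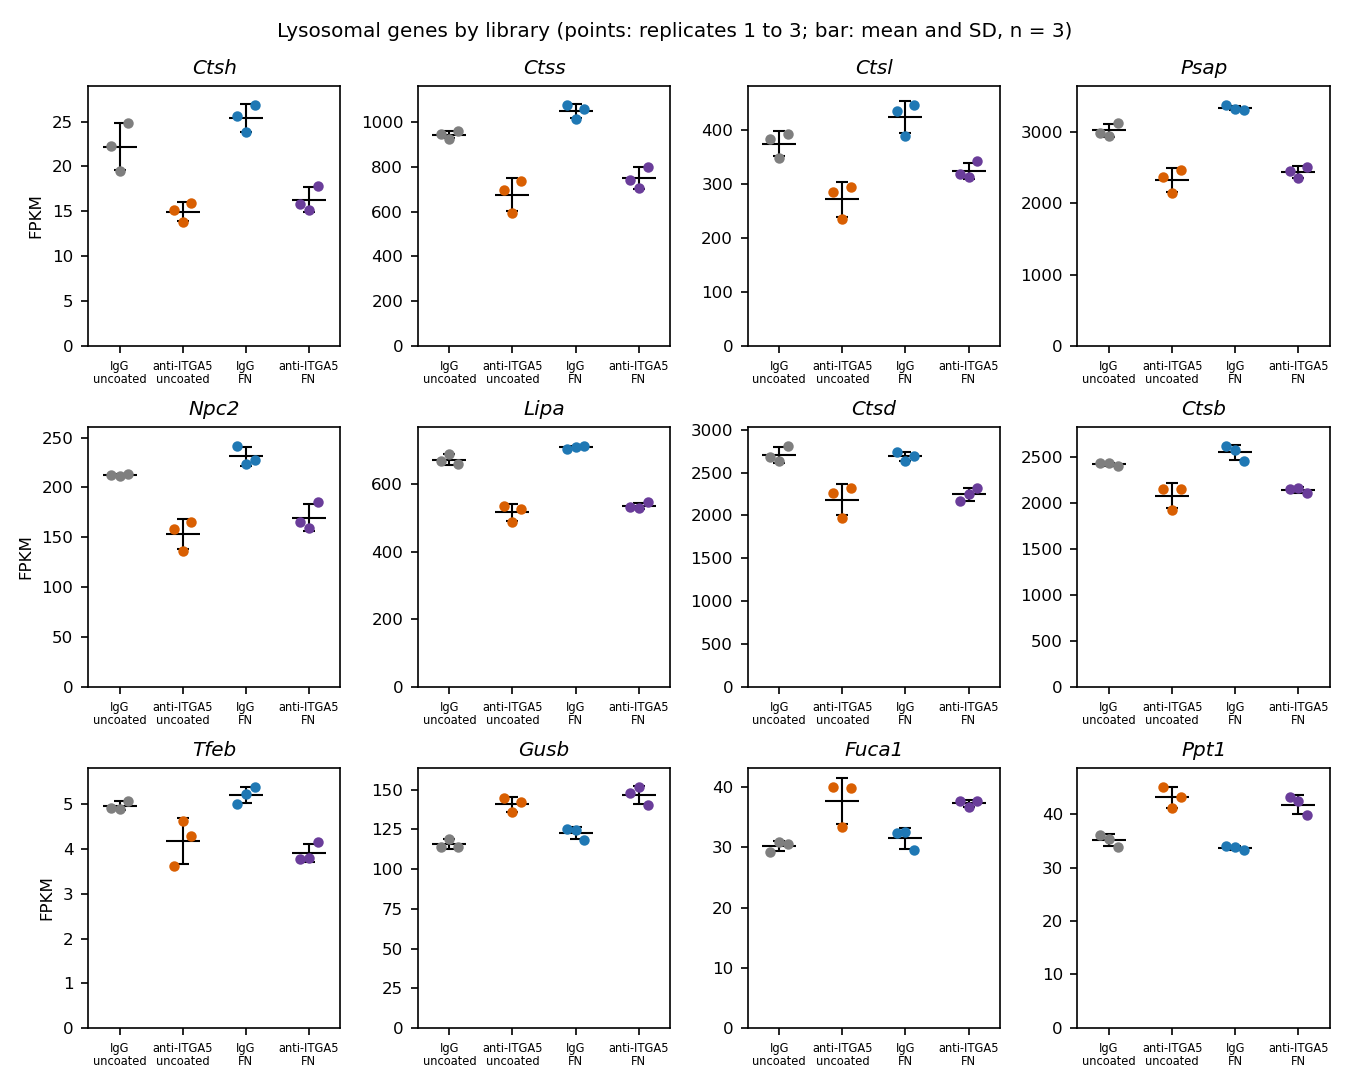
FPKM of 12 of the genes in every library (points, replicates 1 to 3 of each group), with bars at the group mean and SD and each axis starting at 0; FN stands for fibronectin. The anti-ITGA5 libraries lie below the IgG libraries on each surface in Ctsh, Ctss, Ctsl, Psap, Npc2, Lipa, Ctsd, Ctsb and Tfeb and above them in Gusb, Fuca1 and Ppt1.

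Glycosidases, which remove sugars from glycans from their ends, did not move one way as a group: in each comparison 2 of the 10 fell and 2 rose. The risers were the same on either surface. Gusb (ENSMUSG00000025534, chr5:129989011-130003049, minus strand) encodes β-glucuronidase, which acts on glycosaminoglycans. On uncoated plates the level of Gusb was 114, 119 and 114 FPKM with IgG and 145, 136 and 142 FPKM with anti-ITGA5, whereas on fibronectin it was 125, 125 and 119 FPKM with IgG and 148, 152 and 141 FPKM with anti-ITGA5. The anti-ITGA5 libraries were all above the IgG libraries, and the rise was 22.2% without (log2 0.29, SE 0.05, adjusted p = 0.00247) and 19.3% with fibronectin (log2 0.25, SE 0.041, adjusted p = 0.000616). Fuca1 (ENSMUSG00000028673, chr4:135920735-135940311, plus strand) encodes α-fucosidase. Without fibronectin, its FPKM in the 3 libraries were 29.2, 30.8 and 30.6 with IgG and 40.0, 33.3 and 39.9 with anti-ITGA5, and on fibronectin 32.4, 32.6 and 29.5 with IgG and 37.6, 36.7 and 37.7 with anti-ITGA5. These groups did not overlap either, with a rise of 25.5% (log2 0.33, SE 0.0683, adjusted p = 0.00692) and of 18.3% (log2 0.24, SE 0.0483, adjusted p = 0.00262).

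Of the glycosidases that fell, Naglu, whose product removes N-acetylglucosamine from heparan sulfate, did so on either surface (log2 -0.28 without and -0.26 with fibronectin, adjusted p = 0.00286 and 0.00705). Glb1, the gene of lysosomal β-galactosidase, was called lower without fibronectin (log2 -0.18, adjusted p = 0.0306) in this fit and in 7 of 17 alternative fits. Neu1, the gene of a sialidase, was called lower with fibronectin (log2 -0.13, adjusted p = 0.043) in this fit and in 6 of 17 alternatives. The 5 others were called in neither comparison, namely Gla, Gaa, Hexa, Man2b1 and Manba, whose products act on α-galactosides, glycogen, gangliosides and, for the last 2, mannosides. Gla, whose promoter holds 2 copies of the palindrome, had log2 fold changes of -0.08 (95% interval -0.19 to 0.04) without and -0.04 (-0.13 to 0.05) with fibronectin.

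Of the 4 sulfatases, which remove sulfate from glycosaminoglycans, Sgsh, the gene of heparan N-sulfatase, fell on either surface (log2 -0.25 and -0.30, adjusted p = 0.00957 and 0.0032). Ids, the gene of iduronate-2-sulfatase, was called lower without fibronectin (log2 -0.22, adjusted p = 0.0313) in this fit and in 9 of 17 alternatives. Its value with fibronectin was -0.14 (adjusted p = 0.0538). Arsb was just outside the threshold without fibronectin, in the other direction (log2 0.23, adjusted p = 0.0504), and Galns, the gene of a sulfatase of keratan sulfate, was at -0.01 and -0.05.

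The 7 genes of lipid breakdown and transfer had the lowest median log2 fold change of the roles with more than 2 genes, at -0.27 in each comparison; 5 of them fell without and 4 with fibronectin, and 1 rose on either surface. Psap (ENSMUSG00000004207, chr10:60277627-60302597, plus strand) is the most abundant gene of the list. The IgG libraries had 2988, 2946 and 3122 FPKM without fibronectin and 3372, 3324 and 3312 FPKM with it, and the anti-ITGA5 libraries had 2373, 2141 and 2471 FPKM without and 2446, 2350.1 and 2509 FPKM with it. The anti-ITGA5 libraries were the lower ones on each surface, without overlap. Psap fell by 22.6% without fibronectin (log2 -0.37, SE 0.0505, adjusted p = 0.000569) and by 27.1% with it (log2 -0.46, SE 0.037, adjusted p = 4.84e-06). Npc2 (ENSMUSG00000021242, chr12:84754562-84773152, minus strand) encodes the soluble protein that binds cholesterol in the lumen and hands it to NPC1. Replicates 1 to 3 of Npc2 measured 213, 211 and 213 FPKM with IgG and 159, 136 and 165 FPKM with anti-ITGA5 on uncoated plates, and 241, 224 and 228 FPKM with IgG and 165, 159 and 185 FPKM with anti-ITGA5 on fibronectin. Here too the groups were separate, and the log2 fold change was -0.47 without (SE 0.0651, adjusted p = 0.000665) and -0.45 with fibronectin (SE 0.0535, adjusted p = 6.99e-05). Its partner in the membrane, Npc1, also fell (log2 -0.26 and -0.27, adjusted p = 0.00387 and 0.000918).

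Lipa (ENSMUSG00000024781, chr19:34492318-34527474, minus strand) encodes lysosomal acid lipase, which frees cholesterol and fatty acids from cholesteryl esters and triglycerides. On uncoated plates the level of Lipa was 669, 689.7 and 659 FPKM with IgG and 534, 488 and 526 FPKM with anti-ITGA5, whereas on fibronectin it was 704, 709.8 and 712 FPKM with IgG and 532, 528 and 547 FPKM with anti-ITGA5. No anti-ITGA5 library reached the level of an IgG library. Lipa fell by 23.0% without fibronectin (log2 -0.38, SE 0.0491, adjusted p = 0.000433) and by 24.5% with it (log2 -0.41, SE 0.0348, adjusted p = 7.12e-06). Ppt1 (ENSMUSG00000028657, chr4:122836242-122859175, plus strand), which encodes palmitoyl-protein thioesterase 1, an enzyme that removes fatty acids from proteins, rose. Without fibronectin, its FPKM in the 3 libraries were 36.2, 35.4 and 33.8 with IgG and 45.0, 41.1 and 43.3 with anti-ITGA5, and on fibronectin 34.0, 33.9 and 33.3 with IgG and 43.1, 42.4 and 39.8 with anti-ITGA5. All anti-ITGA5 values exceeded all IgG values on the same surface, and the log2 fold change was 0.30 without (SE 0.0516, adjusted p = 0.00236) and 0.31 with fibronectin (SE 0.0438, adjusted p = 0.000258). Smpd1, the gene of acid sphingomyelinase, was called lower without fibronectin (log2 -0.27, adjusted p = 0.012) and not with it (-0.16, adjusted p = 0.191). Asah1, the gene of acid ceramidase, was at -0.01 and 0.00.

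Of the 4 membrane genes, Lamp1, which encodes an abundant glycoprotein of the lysosomal membrane and has 4 E-boxes in its promoter, fell (log2 -0.22 without and -0.18 with fibronectin, adjusted p = 0.00833 and 0.00266). Scarb2, the gene of LIMP-2, which carries glucocerebrosidase to lysosomes, fell to a like degree (log2 -0.22 and -0.19, adjusted p = 0.0131 and 0.0253), the second call being kept in 9 of 17 alternatives. Lamp2 was at -0.10 and -0.04 and Mcoln1 at 0.03 and 0.11, and neither was called.

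Of the 6 proton pump genes, the 2 that fell encode the A and B subunits of the V1 sector, which together bind and split ATP. Atp6v1a fell by 15.9% without and by 15.3% with fibronectin (adjusted p = 0.00849 and 0.00058), and Atp6v1b2 by 15.8% and by 13.1% (adjusted p = 0.00869 and 0.00155). The V1 subunit genes Atp6v1c1 and Atp6v1h, the V0 subunit gene Atp6v0a1 and the accessory gene Atp6ap1 were not called, with log2 fold changes of -0.12 to 0.10 without and -0.11 to 0.10 with fibronectin.

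Tfeb (ENSMUSG00000023990, chr17:47737030-47792419, plus strand) encodes a basic helix-loop-helix factor whose activity is set largely by its entry into the nucleus, which RNA levels do not show. The IgG libraries had 4.93, 4.89 and 5.08 FPKM without fibronectin and 5.01, 5.23 and 5.38 FPKM with it, and the anti-ITGA5 libraries had 3.63, 4.64 and 4.30 FPKM without and 3.77, 3.81 and 4.15 FPKM with it. The anti-ITGA5 libraries were below the IgG libraries on each surface. The fall with fibronectin was 25.1% (log2 -0.42, SE 0.0719, adjusted p = 0.00101), whereas the value without fibronectin did not pass the threshold (log2 -0.24, SE 0.0934, adjusted p = 0.0922). Tfe3 (ENSMUSG00000000134, chrX:7762560-7775202, plus strand) encodes its close relative. Replicates 1 to 3 of Tfe3 measured 11.9, 12.0 and 12.7 FPKM with IgG and 11.7, 11.3 and 11.7 FPKM with anti-ITGA5 on uncoated plates, and 11.9, 11.8 and 12.3 FPKM with IgG and 11.8, 11.4 and 12.2 FPKM with anti-ITGA5 on fibronectin. The groups were separate without fibronectin and overlapped with it, and the log2 fold change was -0.07 (adjusted p = 0.341) without and -0.02 (adjusted p = 0.741) with it. Grn, the gene of progranulin, which is split into granulins in lysosomes, was at -0.13 (adjusted p = 0.0888) and -0.05 (adjusted p = 0.426).

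Among the genes with a promoter in the table, the E-box was present in 6 of the 11 that were lower in both antibody comparisons (Atp6v1a, Ctsd, Ctsl, Lamp1, Naglu and Sgsh) and in 5 of the 15 called in neither (Ctsa, Gaa, Gla, Lgmn and Mcoln1). It was present in 1 of the 7 called in a single comparison (Glb1) and in none of the 3 that were higher in both. The palindrome was present in 2 of the 11 genes lower in both and in 3 of the 15 called in neither.

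As a share of all FPKM of a library, the 44 genes held 4.58% ± 0.0261 (SD, n = 3) with IgG and 3.90% ± 0.281 with anti-ITGA5 on uncoated plates. With fibronectin the shares were 4.75% ± 0.0751 and 4.07% ± 0.0898. The anti-ITGA5 libraries were thus the lower ones on each surface. Psap, Ctsd, Ctsb and Ctss, which all fell, held 62.1% of the summed FPKM of the list, so these shares depend mostly on them. The total of FPKM included Gm23935, a short gene annotated as a miRNA, which took 16.4% of all FPKM in replicate 3 of anti-ITGA5 without fibronectin. Without Gm23935, an alternative added after the data were seen, the shares were 4.77% and 4.19% without and 4.86% and 4.22% with fibronectin.

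Markers of cell types also changed, some falling and others rising. Of the macrophage markers, Lyz2, Mertk, Itgam and Cd68 fell upon ITGA5 neutralization on either surface, Cd14 rose, and Csf1r, Adgre1 and Fcgr1 were not called. The summed FPKM of the 8 markers lay between 8977 and 9822 with IgG and between 6129 and 7517 with anti-ITGA5 without fibronectin, and between 9558 and 9759 with IgG and between 7336 and 7506 with anti-ITGA5 with fibronectin. Lyz2, the gene of lysozyme, made up most of this sum. The other 7 markers summed to 1828 to 1874 with IgG and 1569.8 to 1736 with anti-ITGA5 without fibronectin, and to 1849.6 to 1884 and 1734 to 1755 with it. All 10 markers of dividing cells rose in both comparisons, by log2 0.88 to 2.18 without and 1.01 to 2.27 with fibronectin. Their summed FPKM was 127 to 166 against 351 to 409 without and 121 to 169 against 326 to 446 with fibronectin. Summed markers of neutrophils did not exceed 4.44 FPKM in any library, those of osteoclasts 14.6, those of dendritic cells 2.71, those of lymphocytes 0.481, those of fibroblasts 0.356 and those of mast cells 0.132. Of the markers of these other cell types, Itgax of the dendritic list rose in both comparisons (log2 0.94 and 0.44), and Acp5 of the osteoclast list and Mpo of the neutrophil list fell with fibronectin (-0.93 and -0.94). The part of these markers in the falls of the lysosomal genes was not tested.

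Whether the antibody effect differed between the surfaces was tested directly, as the interaction of antibody and coating over all 12 libraries. None of the 44 genes was called by edgeR, DESeq2 or limma, and none had an unadjusted p under 0.05 in edgeR, against 0.0223% of all 13455 genes called and 2.87% with such a p. The estimates, as the log2 fold change with fibronectin minus that without, ran from -0.18 for Tfeb (95% interval -0.43 to 0.08) to 0.18 for Ctsc (-0.06 to 0.43). A difference of up to 0.43 in size on the log2 scale was within these intervals. The genes called on a single surface, Glb1, Ids, Smpd1, Ctsz, Neu1, Tfeb and Ctsc, were therefore not shown to respond differently on the other.

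The other question was whether fibronectin coating itself changed these genes. With IgG, 1 of the 44 genes was called higher with fibronectin and none lower, against 0.449% of all 12925 genes tested (0.325% higher and 0.124% lower). That gene was Ctsz (ENSMUSG00000016256, chr2:174427493-174439039, minus strand). On uncoated plates the level of Ctsz was 553, 538 and 576 FPKM with IgG and 557, 479 and 576 FPKM with anti-ITGA5, whereas on fibronectin it was 651, 644 and 634 FPKM with IgG and 579, 587 and 592 FPKM with anti-ITGA5. Among the IgG libraries all 3 with fibronectin were above all 3 without, a rise of 15.2% (log2 0.20, SE 0.0355, adjusted p = 0.0178). Among the anti-ITGA5 libraries the difference was 0.11 (adjusted p = 0.979). No gene of the list was called higher at a threshold of 0.01, in a fit of all 12 libraries, by limma, or without replicate 1 or 2 of IgG without fibronectin or replicate 1 of IgG with fibronectin. The next lowest adjusted p-values with IgG were those of Ctss (log2 0.15, adjusted p = 0.094), Psap (0.14, 0.0958) and Ctsc (-0.14, 0.126). In all, 9 genes (20.5%) had an unadjusted p under 0.05, against 9.79% of all genes. The FPKM of the groups did not overlap for 8 genes that were higher and 1 that was lower, against 8.8% and 6.61% of all genes. DESeq2, which gave an adjusted p to 39 of the 44 genes, called 5 higher and 1 lower, against 3.13% and 1.28% of the 3194 genes to which it gave one. With a filter of at least 1 count, edgeR called 6 higher and 1 lower (13.6% and 2.27% of the list), against 0.683% and 0.258% of all genes in that fit. The median over the list was 0.02 (-0.0037 when libraries were scaled to total counts), and the 95% intervals of all 44 genes lay within -0.23 and 0.33.

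With anti-ITGA5, none of the 44 genes was called by edgeR between the coatings, nor was any of the 12863 genes tested (0%). In the list 2 genes had an unadjusted p under 0.05, Ctsl (log2 0.24, 95% interval 0.07 to 0.42) and Arsb (-0.18, -0.36 to -0.00), against 3.58% of all genes, and neither DESeq2 nor limma called any of the list. With a filter of at least 1 count, edgeR called 1 gene of the list higher and none lower, against 0.444% and 0.842% of all genes in that fit. Levels did not overlap for 7 genes that were higher with fibronectin and for none that was lower, against 5.79% and 3.95% of all genes. The 95% intervals of the list lay within -0.36 and 0.42, which is wider than with IgG. The coating comparisons use the same libraries as the antibody comparisons.

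**Figure D4:**
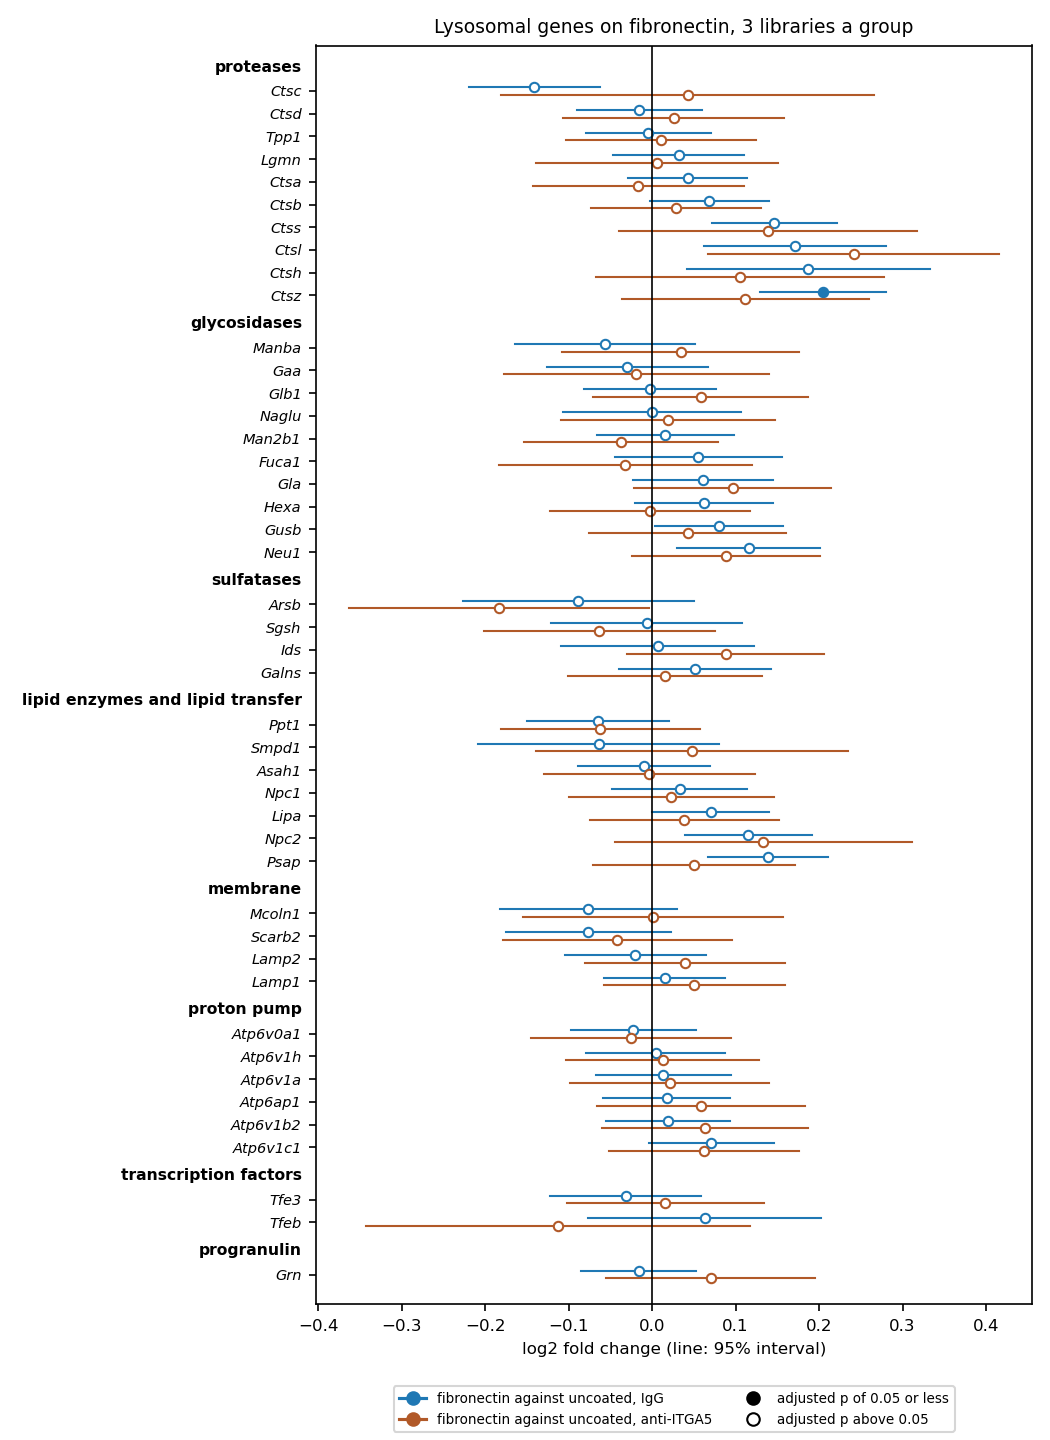
Log2 fold change of fibronectin against no coating for each of the 44 genes, with IgG (blue) and with anti-ITGA5 (brown), with 95% intervals from edgeR (3 libraries per group). Ctsz with IgG, at 0.20, is the only filled point (adjusted p of 0.05 or less).

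A second list of 78 lysosomal genes that are not among the 44 was examined for the same direction, and 74 of its genes passed the filter. It was chosen with earlier results of these data known and measured in the same 12 libraries, so it is no independent check. Without fibronectin 14 of the 74 fell and 4 rose (24.3%), and with fibronectin 22 fell and 3 rose (33.8%), against the 20.8% and 27.6% of all genes given above. Lower genes made up 18.9% and 29.7% of the 74, against 9.79% and 13.2% of all genes, and higher genes 5.41% and 4.05%, against 11% and 14.4%. The median log2 fold change was -0.07 and -0.06. With each library left out in turn, 9 to 17 fell and 1 to 6 rose without fibronectin. Of all genes, 4.7% to 14% fell and 6.34% to 15.1% rose in those fits. With fibronectin 17 to 24 fell and 3 to 4 rose, against 8.43% to 14.4% and 10% to 15.6% of all genes. Of the 14 lower without fibronectin, 13 (92.9%) were lower with it too, and they made up 59.1% of the 22, against the 72.5% and 54% of all genes. They included Abca2, Cd68, Flcn, Gm2a, Gnptab, Hyal1, Laptm5, Man2b2, Mitf, Rragc and Tcirg1.

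By class, 1 of 13 further proton pump genes fell without (7.69%) and 4 with fibronectin (30.8%), and 1 rose in each comparison. Of 25 further enzymes and cofactors, 6 fell (24%) and 2 rose without and 7 fell (28%) and 2 rose with fibronectin. Membrane genes fell in 3 and 5 of 16 cases (18.8% and 31.2%), genes of sorting to the lysosome in 1 and 2 of 5 (20% and 40%), and genes of nutrient signaling on the lysosome and of the MiT factor family in 3 and 4 of 15 (20% and 26.7%). Among the genes called, the largest falls without fibronectin were those of Arsg, the gene of a sulfatase of heparan sulfate (log2 -0.74, adjusted p = 0.0169, with 40 to 93 reads per library), Hyal1, that of a hyaluronidase (-0.61, 0.000324), and Flcn, that of folliculin, which acts in nutrient signaling (-0.46, 0.00105). With fibronectin they included those of Acp5, the gene of tartrate-resistant acid phosphatase (-0.93, 0.00736, with 31 to 114 reads per library) and Hyal1 (-0.56, 0.000157). Acp5 is also on the osteoclast marker list, and Cd68 on that of macrophages.

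The largest rises of the second list, again among the genes called, were those of Dnase2a, the gene of the acid DNase of lysosomes (log2 0.35 without and 0.34 with fibronectin, adjusted p = 0.00225 and 0.000277), and Nagpa, that of the uncovering enzyme of the mannose 6-phosphate tag (0.30 and 0.28, 0.00708 and 0.00184). They were followed by Tfec, an MiT factor, without fibronectin (0.28, 0.0403) and by the V0 subunit gene Atp6v0d1 with it (0.21, 0.00272).

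**Figure D5:**
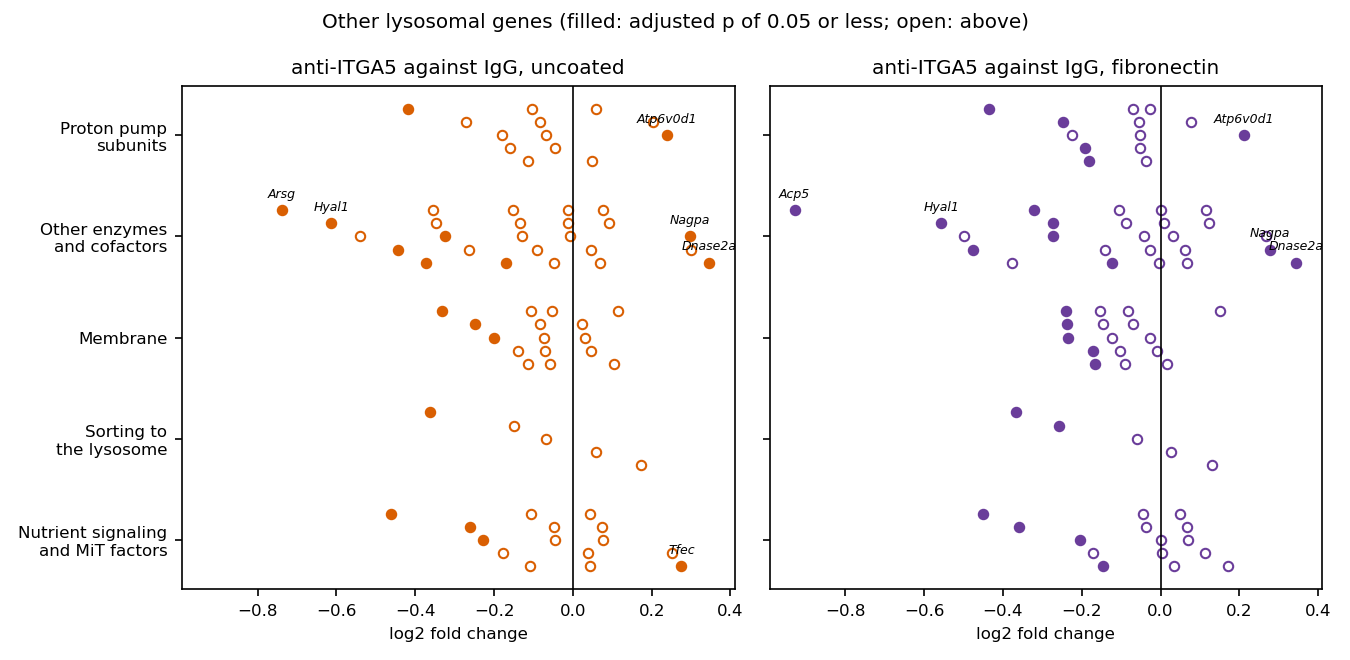
Log2 fold change of anti-ITGA5 against IgG (edgeR, 3 libraries per group) for the 74 further lysosomal genes that passed the filter, by class, without fibronectin (left) and with it (right). Filled points mark an adjusted p of 0.05 or less; 14 lie below 0 on the left and 22 on the right, and labels name genes with the largest rises and falls.

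Genes that overlap others limit some of these values. In the annotation release whose coordinates matched the table for 43 of the 44 genes, 21 of the 44 overlap another annotated gene, among them Ctsb, Ctsc, Ctsd, Ctsl, Ctss, Ctsz, Ppt1, Npc1, Lamp1, Scarb2, Sgsh, Glb1 and Atp6v1b2. Of the 21, 8 overlap a gene on the same strand, namely Ctsd, Ctsl, Ctss, Glb1, Manba, Arsb, Galns and Atp6v0a1. Overlaps were taken over whole gene spans, introns included. The strand setting of the counting was not given in the sources used here, so whether partners on the other strand entered the counts is not known. For the 8 with a partner on the same strand, strand alone would not separate the reads.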

How the data were processed

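Messenger RNA was enriched with oligo(dT) beads and sequenced as paired-end reads. Per the submitters' processing notes the tools were TopHat2 2.0.9, HTSeq 0.6.1 and Cufflinks 2.1.1 on mm10 (GRCm38.p6), and the study's methods describe alignment, counting per gene and FPKM in that order. The authors deposited raw counts per gene and a table of FPKM, values per length that were used here for levels and never for the main tests. Neither table was pooled over replicates. Columns were assigned to groups by the sample titles.

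Counts were tested with edgeR 4.0.16 in R 4.3.3 (filterByExpr with minimum count 10 and minimum total count 15, TMM scaling, quasi-likelihood test, 2-sided). Adjusted p-values are Benjamini-Hochberg values over all genes tested, and a gene was called at 0.05 or less. Each pair of groups was tested on its own 6 libraries, and the interaction on all 12. A fold change is anti-ITGA5 against IgG or fibronectin against no coating. The scripts were tested on simulated data.

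The members and lists were chosen with earlier results of these data known. Values per library are given for called genes (with more than 10 called, the 5 largest rises and falls), the 4 most abundant genes, Tfeb and Tfe3, and in the second list the 3 largest rises and falls are named, except where a gene is not reported here. A few further genes were picked out with their values known. Alternatives were DESeq2 1.42.0, other scalings and filters, thinned counts, 1 fit of all libraries, a replicate block, limma 3.58.1 on log2(FPKM + 1) or log2(FPKM + 0.1), with FPKM of at least 0.5 or no filter, a threshold of 0.01, and each library left out.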

Additional observations from a re-analysis of the deposited data

How the results depend on the processing

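The alternatives were followed gene by gene for 26 of the 44 genes. Of the values of these 26 genes in the antibody comparisons, 416 kept their direction and their side of the threshold without fibronectin across the alternatives and 420 with it, while 47 and 43 lost their call and 2 and 3 gained one. Calls kept in all 17 alternative fits were those of Ctsh, Naglu, Npc1, Npc2, Gusb and Ppt1 without fibronectin, and with it those of Ctsh, Ctsl, Ctss, Lipa, Npc1, Npc2, Atp6v1a, Atp6v1b2, Tfeb, Gusb, Fuca1 and Ppt1. Among the 26 genes, the sign turned for Ctsc without fibronectin (0.00772 with total counts, and -0.11 to 0.088 with each library left out, the highest without replicate 2 of anti-ITGA5), for Ctsz without fibronectin (-0.10 to 0.026, the highest without that library) and for Tfe3 with fibronectin (0.017 with total counts, and -0.050 to 0.0020, the highest without replicate 2 of anti-ITGA5), none of which was called in that comparison. Over all 44 genes, total counts turned the sign of 5 without fibronectin (Ctsa, Ctsc, Galns, Asah1 and Atp6v1c1) and of 5 with it (Hexa, Lamp2, Atp6v1c1, Atp6ap1 and Tfe3), none of them called. The other alternatives were not searched for turns of sign in the 18 genes not followed.

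The number of genes lower fell from 18 to 6 without and to 9 with fibronectin in the unfiltered limma fit on log2(FPKM + 1), and the cause was not tested. With each library left out in turn it ran from 11 to 19 without and from 15 to 19 with fibronectin, and the number higher from 2 to 4 and from 3 to 5, while the share of all genes called lower ran from 4.7% to 14% and from 8.43% to 14.4%, and that called higher from 6.34% to 15.1% and from 10% to 15.6%. Scaled to total counts, the median over the list was -0.07 against 0.05 over all genes without fibronectin, and -0.06 against 0.04 with it, and 30 and 29 of the 44 values were negative.

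For fibronectin with IgG, the number of genes higher was 0 at an adjusted p of at most 0.01, in 1 fit of all libraries and in the 3 limma fits, 5 with DESeq2, 6 with at least 1 count as the filter, and 0 to 3 with each library left out. DESeq2 and the filter of at least 1 count also called 1 gene lower. With anti-ITGA5, the filter of at least 1 count called 1 gene higher (0.444% of all genes). As a share of counts the list held 5.01%, 4.36%, 5.18% and 4.46% in IgG and anti-ITGA5 without and IgG and anti-ITGA5 with fibronectin, and as a share of FPKM without Gm23935 4.77%, 4.19%, 4.86% and 4.22%, so that the level moved and the order of IgG and anti-ITGA5 did not.

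The replicate numbers were not taken as pairing: deviations of same-numbered libraries correlated at -0.031 to 0.15 in all 18 pairs between groups, 7 of them over 0.1, and 10 of 12 libraries correlated best with their own number, a hint from the data and not the design. With the replicate block 18 genes fell and 4 rose without fibronectin (11% and 12% of all genes), 21 and 5 with it (17.2% and 18%), and for fibronectin with IgG 6 were higher and 1 lower (2.19% and 1.03% of all genes). With counts thinned to the smallest library, the calls of Neu1 and Ctsc with fibronectin were lost.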
